A study of Mus musculus with 24 samples.

Results

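Mitosis genes are genes whose products build or run cell division after the DNA has been copied, and 35 of them were followed here across brown and white mouse fat cells. A member was every probe set (the group of probes that reads out a transcript) whose single annotated gene symbol was on the list of 35. Of these, 33 had a probe set among the 8251 genes with one, through 44 probe sets, and Bub1b and Ccnb1 had none with that symbol alone. The values came from 24 Affymetrix Murine Genome U74Av2 arrays of adipocytes in primary culture, cells taken from brown fat (BAT) or white fat (WAT) and grown without being made into a line. The labels called cells not differentiated at day 4 and differentiated at day 7. The groups were brown cells at day 4 (n = 5 arrays), brown cells at day 7 (n = 5), white cells at day 4 (n = 8) and white cells at day 7 (n = 6). The labels gave no strain, age or sex, and no treatment other than the state of differentiation. No label ties the arrays to individual animals or cultures, so p-values here rest on the variation among arrays alone, and that variation may be technical. Arrays are named by group and label number. The numbers, whose meaning is not given in the labels, are lower on all brown than on all white arrays, so that whatever goes with them and cell type cannot be told apart.

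Entry into mitosis is driven by cyclin-dependent kinase Cdk1 with its A and B cyclins and by the Plk1 and Aurora kinases. The spindle checkpoint then holds the anaphase-promoting complex in check until every chromosome is attached, after which Cdc20 switches that complex on and the chromosomes part. In fat, dividing precursor cells leave the cell cycle as they mature into lipid-filled adipocytes, and many mitosis genes are transcribed mainly in dividing cells through CCAAT boxes and the cell cycle homology region in their promoters.

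The RefSeq table of promoters (build GRCm38.p6) held an entry for 28 of the 35 genes. The 3 below belong to the members with the largest mean fall over both cell types among those with an entry, and each shows the 250 bases before the start site, read 5′ to 3′ in the direction of the gene. Capitals mark CCAAT, the box bound by NF-Y, and TTTGAA, a core of the cell cycle homology region. The promoter of Cdc20 lies at chr4:118437344-118437593 on the minus strand, that of Aurka at chr2:172370571-172370820 on the minus strand and that of Plk1 at chr7:122159185-122159434 on the plus strand.
Cdc20: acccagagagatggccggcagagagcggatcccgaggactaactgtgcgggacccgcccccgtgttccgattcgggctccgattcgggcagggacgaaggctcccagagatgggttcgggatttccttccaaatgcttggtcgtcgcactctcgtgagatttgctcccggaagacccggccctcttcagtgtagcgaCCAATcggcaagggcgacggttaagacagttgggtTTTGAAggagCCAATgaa
Aurka: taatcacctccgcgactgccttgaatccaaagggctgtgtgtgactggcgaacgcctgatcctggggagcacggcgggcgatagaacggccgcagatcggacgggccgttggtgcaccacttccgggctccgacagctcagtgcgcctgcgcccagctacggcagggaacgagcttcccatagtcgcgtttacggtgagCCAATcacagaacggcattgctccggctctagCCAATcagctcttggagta
Plk1: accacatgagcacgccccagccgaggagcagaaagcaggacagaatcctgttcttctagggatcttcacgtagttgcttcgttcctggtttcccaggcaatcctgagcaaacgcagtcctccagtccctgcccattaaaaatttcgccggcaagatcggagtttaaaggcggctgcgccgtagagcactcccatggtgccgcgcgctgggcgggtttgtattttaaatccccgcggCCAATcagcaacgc
The Cdc20 promoter held CCAAT with its first base 53 and 8 bases before the start site, and TTTGAA between them at 18 bases. That of Aurka held CCAAT at 51 and 19 bases, and that of Plk1 held it at 14 bases.

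A gene was counted where the same 250 bases of any of its entries held the motif. CCAAT on either strand stood in 23 of the 28 members with an entry (82.1%), against 39.5% of the 17491 protein-coding genes in the table. Genes with several entries had more bases searched, which was not adjusted for. TTTGAA or TTCGAA, which are other letters than CCAAT, stood on either strand in 13 of 28 (46.4%), against 18.4%. Both kinds of motif stood in 12 of 28 (42.9%), against 6.83%. CCAAT was present in 7 of 9 members that were lower at day 7 in both cell types, and in 11 of 13 called in neither, by the test described below. A match of letters is a description and no measured binding site.

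Before testing, signals of every array were scaled to a 2% trimmed mean of 150, signals under a floor of 8.21 were raised to it, and the values were put on the log2 scale. A probe set was tested where 5 or more arrays had it above their 40th percentile. This left 8397 probe sets, 6281 genes and 32 of the mitosis genes. The exception was Cenpe, the kinetochore motor, whose 2 probe sets reached at most 13.3 and 21.7. Kifc1 passed with just 5 arrays, 4 of them from brown day 4, so it had to differ between groups. Its values below are a description, with no test, and the main counts it enters by call are also given without it. Counts from alternative runs, with other settings or arrays left out, were not computed without it. Its relative Kifc5b is nearly identical in sequence, and its probe set may read both. A difference is called where its adjusted p in the limma fit is under 0.05, and values after ± are standard errors of that fit.

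Of the 10 adipocyte markers 8 were on the array, with a summed signal of 6409 to 14286 on day 4 arrays and 14422 to 21022 on day 7 arrays. Single markers differed widely, with median signals at brown day 4 from 10.2 for Cidec, near the floor, to 3749 for Cebpa. Adipoq, Cidec, Lipe and Retn were called higher at day 7 in both cell types, and Pparg and Lpl in white cells alone. Fabp4 and Cebpa were called in neither, and Cebpa had a negative sign in brown cells, at -0.31. Of the brown fat list, Zic1 lay at the floor on all white arrays. Ucp1, the defining brown fat gene, did not pass the filter, with a median signal of 19.4 on brown day 4 and 53.1 on brown day 7 arrays. White day 4 arrays 45 and 51 had the lowest median signals of the 24 arrays, 42.8 and 41.9. The Gapdh 3′ over 5′ signal ratio, a measure of RNA integrity that is higher in more degraded RNA, was 1.36 ± 0.204 (SD, n = 6) at white day 7 and between 0.884 and 0.943 on average in the other groups. The same ratio of beta-actin averaged 2.38 at white day 7 and between 1.47 and 1.61 in the other groups.

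Brown cells carried less mitosis gene RNA at day 7 than at day 4. Of the 32 genes tested, 14 were lower and 0 higher, where 6.50% of all 6281 genes were lower and 6.48% higher. Without Kifc1 the count was 13 of 31. All 32 differences had a negative sign, with a median of -0.81 on the log2 scale against 0.02 over all genes. Among the 31 without Kifc1 all were negative too, with a median of -0.80. On 12 of the 32, every day 7 array lay under every day 4 array, against 5.54% of all genes, and on 11 of 31 without Kifc1. White cells showed 15 lower and 0 higher, where 10.4% of all genes were lower and 9.03% higher, with a median of -0.56 against 0.01. Smc4 was the 1 gene of the 32 with a positive sign there. On 2 of the 32, Bub3 and Plk1, the white arrays did not overlap, against 2.64% of all genes. In total 11 genes were lower in both cell types, where 4.27% of all genes were. In bulk RNA, fewer dividing cells and less RNA per dividing cell cannot be told apart.

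**Figure D1:**
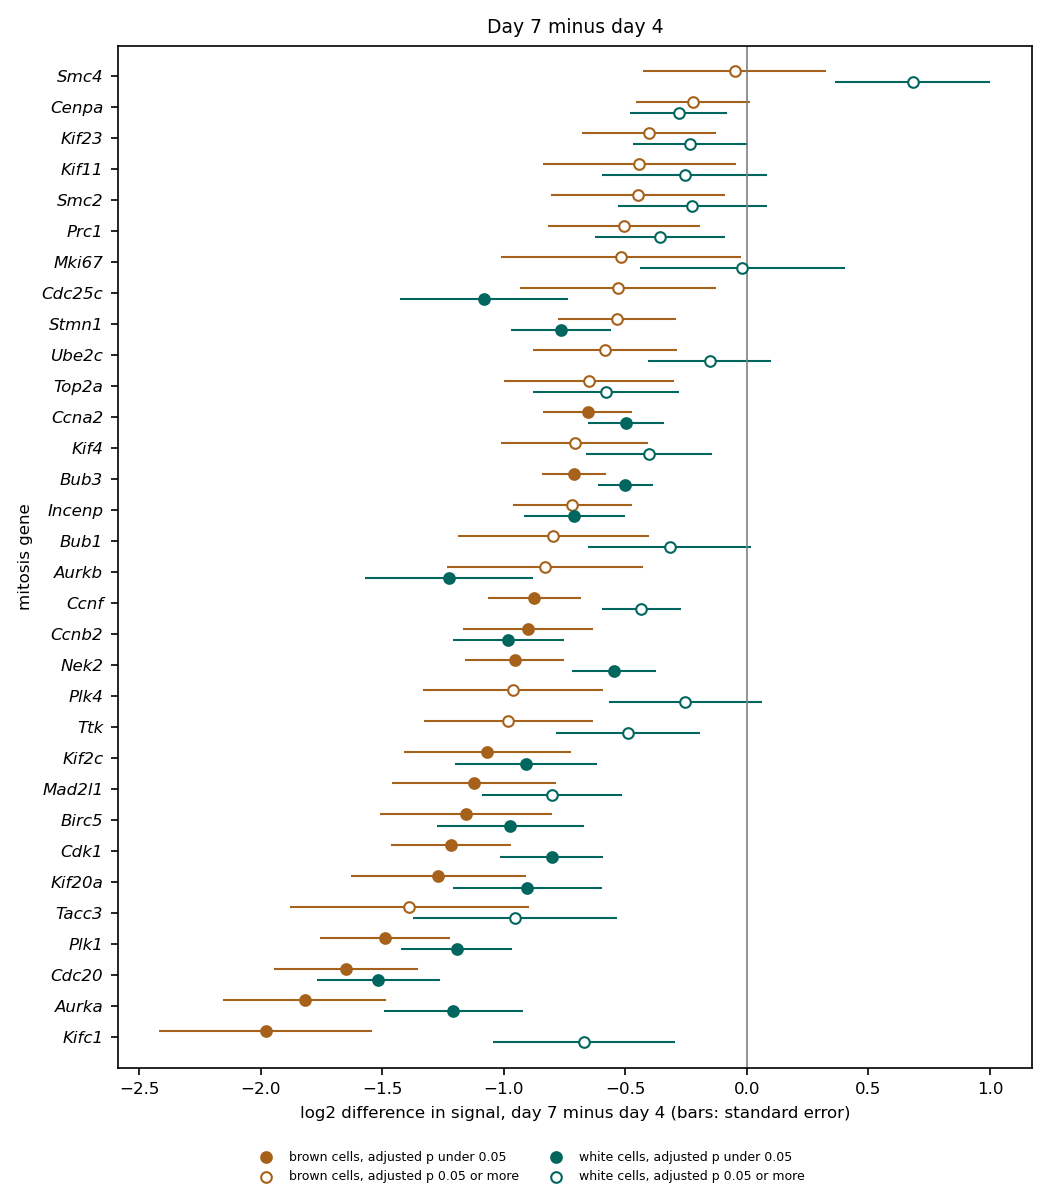
Log2 difference in signal (x axis, day 7 minus day 4) for each of the 32 mitosis genes tested (y axis), in brown and white cells, with bars for the standard error of the fit. Filled points have an adjusted p under 0.05, and the points run from Kifc1 at -1.98 in brown cells, which had to differ to pass the filter, to Smc4 at 0.68 in white cells.

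The kinases, cyclins and phosphatase of mitotic entry held the most calls, 7 of 8 tested in each cell type. Aurka, which matures the centrosomes that become spindle poles, read 243, 143, 276, 259 and 240 on the brown day 4 arrays and 66.6, 28.1, 92.2, 54.2 and 116 on the brown day 7 arrays. All day 7 signals lay under all day 4 signals. Aurka fell by 1.82 ± 0.33 in brown cells (3.53-fold, adjusted p = 0.000779). In white cells its signal ran from 81.3 over a median of 115 to 199 at day 4 and from 26.9 over 55.8 to 89.7 at day 7. The ranges overlapped, and the fall was 1.21 ± 0.29 (2.31-fold, adjusted p = 0.00435).

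Plk1, the polo-like kinase that triggers entry and spindle assembly, read 612, 486, 746, 666 and 789 at brown day 4 and 184, 177, 342, 179 and 336 at brown day 7. In white cells it ran from 268 over 305 to 473 at day 4 and from 83.9 over 146 to 242 at day 7. Neither pair of ranges overlapped. Plk1 fell by 1.49 ± 0.27 in brown (adjusted p = 0.00061) and 1.19 ± 0.23 in white cells (adjusted p = 0.000813). Of its other tested probe sets, one fell in both cell types, and one gave -1.29 and -1.12 with adjusted p-values of 0.0746 and 0.0518.

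Cdk1, the kinase at the centre of mitotic entry, fell by 1.22 ± 0.25 in brown (adjusted p = 0.0017) and 0.80 ± 0.21 in white cells (adjusted p = 0.00882). Its cyclin Ccnb2 fell by 0.90 ± 0.27 and 0.98 ± 0.23. Ccna2, the A-type cyclin of somatic cells, had one of the smallest called differences. It read 511, 320, 485, 404 and 283 at brown day 4 and 255, 238, 297, 222 and 235 at brown day 7. The day 7 range was narrow, and 1 day 7 array, 11, lay above the lowest day 4 array. In white cells Ccna2 ran from 196 over 238 to 354 at day 4 and from 139 over 185 to 219 at day 7. It fell by 0.65 ± 0.18 in brown (adjusted p = 0.0183) and 0.50 ± 0.16 in white cells (adjusted p = 0.0271).

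Nek2, which lets the centrosomes separate, read 162, 125, 207, 142 and 170 at brown day 4 and 86.0, 73.2, 104, 60.4 and 93.7 at brown day 7. These did not overlap. In white cells Nek2 ran from 68.6 over 107 to 160 at day 4 and from 48.2 over 82.3 to 87.2 at day 7. It fell by 0.95 ± 0.20 in brown (adjusted p = 0.00251) and 0.55 ± 0.17 in white cells (adjusted p = 0.0287). Ccnf, an F-box protein named for its cyclin domain, fell by 0.87 ± 0.19 in brown cells and gave -0.43 ± 0.16 in white cells (adjusted p = 0.0612). Cdc25c, the phosphatase that removes inhibitory phosphates from Cdk1, fell by 1.08 ± 0.35 in white cells (adjusted p = 0.0291) and gave -0.53 ± 0.40 in brown cells (adjusted p = 0.452). White day 7 array 44 read 5.08, under the floor, against 32.1 to 88.8 on the others, and without it the white difference was -0.61 (adjusted p = 0.0682). Its other probe set passed in neither, with -0.72 in white (adjusted p = 0.0555) and -0.82 in brown cells (adjusted p = 0.0874).

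Cdc20, the activator of the anaphase-promoting complex, stood at high signal and fell far in both cell types. It read 1253, 983, 1506, 1485 and 1741 at brown day 4 and 477, 312, 579, 274 and 672 at brown day 7, with no overlap. In white cells it ran from 430 over 726 to 1048 at day 4 and from 156 over 255 to 484 at day 7, so that the highest day 7 array passed the lowest day 4 array. Cdc20 fell by 1.65 ± 0.30 in brown (3.14-fold, adjusted p = 0.000638) and 1.52 ± 0.25 in white cells (2.86-fold, adjusted p = 0.000301). Ube2c, the ubiquitin-conjugating enzyme that works with the same complex, gave -0.58 ± 0.30 and -0.15 ± 0.25 and passed in neither (adjusted p = 0.222 and 0.722).

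**Figure D2:**
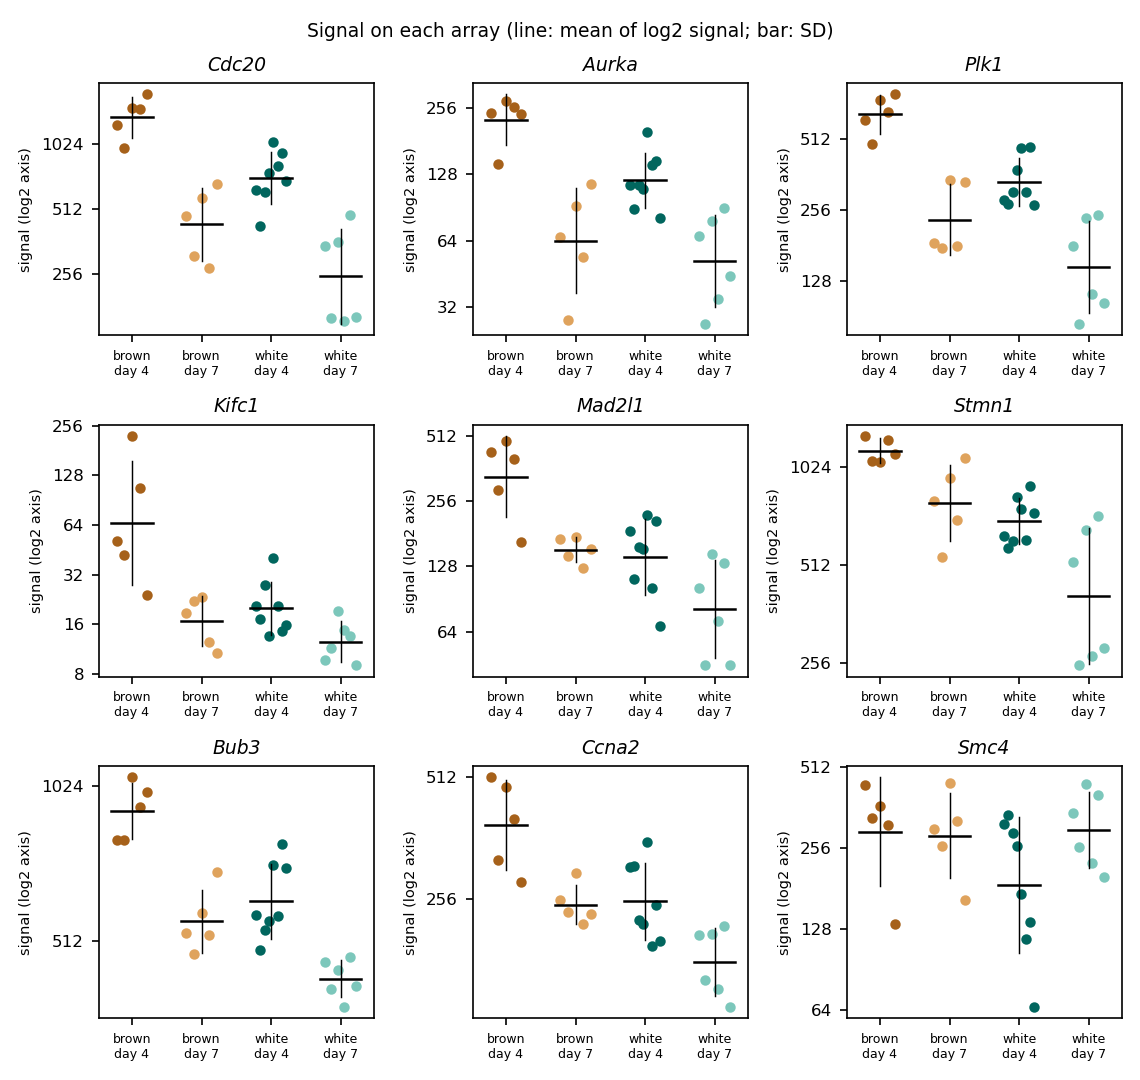
Signal on each array (y axis, log2 axis) in the 4 groups (x axis) for 9 mitosis genes, with lines at the mean of the log2 signals and bars for the SD. Cdc20 read 983 to 1741 at brown day 4 and 156 to 484 at white day 7, and Smc4 showed white day 7 arrays among the highest.

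Of the spindle checkpoint genes, 2 of 4 tested were lower in brown and 1 in white cells. Bub3, which docks checkpoint kinases at kinetochores, read 804, 805, 1062, 929 and 995 at brown day 4 and 529, 482, 580, 525 and 697 at brown day 7. In white cells it ran from 491 over 572 to 787 at day 4 and from 381 over 433 to 475 at day 7. Its arrays overlapped in neither cell type, and its differences were among the smallest called, a fall by 0.71 ± 0.13 in brown (adjusted p = 0.000895) and 0.50 ± 0.11 in white cells (adjusted p = 0.0033). Mad2l1, the checkpoint protein that binds Cdc20, read 434, 289, 484, 403 and 166 at brown day 4 and 172, 143, 174, 126 and 153 at brown day 7. Array 19 was low among the day 4 arrays, and the others stood clear of day 7. Mad2l1 fell by 1.12 ± 0.34 in brown cells (adjusted p = 0.0273) and gave -0.80 ± 0.29 in white cells (adjusted p = 0.0512). The checkpoint kinases Bub1 and Ttk passed in neither, with -0.80 ± 0.39 and -0.98 ± 0.35 in brown cells.

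The chromosomal passenger complex, which corrects faulty spindle attachments, had 1 of 3 genes lower in brown and 3 of 3 in white cells. Its kinase Aurkb read 198, 189, 232, 243 and 277 at brown day 4 and 129, 110, 149, 106 and 148 at brown day 7. In white cells it ran from 49.3 over 178 to 304 at day 4 and from 21.9 over 85.6 to 169 at day 7. The brown arrays did not overlap and the white ones did, yet the fit called the white fall of 1.23 ± 0.35 (adjusted p = 0.014) and not the brown difference of -0.83 ± 0.40 (adjusted p = 0.197). A single spread is fitted for all groups, and the SD of Aurkb in log2 was 0.77 and 1.06 in the white groups against 0.22 and 0.23 in the brown ones. Birc5, the survivin subunit, fell by 1.15 ± 0.35 in brown and 0.97 ± 0.30 in white cells. Incenp, the scaffold, fell by 0.71 ± 0.21 in white cells (adjusted p = 0.018) and gave -0.72 ± 0.24 in brown cells (adjusted p = 0.0544). Its second probe set gave -0.35 in white cells (adjusted p = 0.186).

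Of the kinesins and spindle proteins, 3 of 9 were lower in each cell type, in brown cells with Kifc1 among them. Kifc1, the minus-end motor that bundles spindle poles, read 51.2, 42.1, 222, 107 and 24.02 at brown day 4 and 18.7, 22.1, 23.5, 12.5 and 10.6 at brown day 7. Signals were low apart from arrays 09 and 10, and the groups were separated by less than 1 signal unit. The fitted difference of Kifc1 was -1.98 ± 0.44 in brown and -0.67 ± 0.37 in white cells, and the first was fixed in direction by how the gene passed the filter. The motors Kif20a, of cytokinesis, and Kif2c, which takes microtubules apart at centromeres, were lower in both cell types, by 1.27 ± 0.36 and 1.07 ± 0.34 in brown cells. Stmn1, which destabilises microtubules, fell by 0.77 ± 0.21 in white cells (adjusted p = 0.0102) and gave -0.53 ± 0.24 in brown cells (adjusted p = 0.16). Kif11, Kif23, Kif4, Prc1 and Tacc3, of spindle poles and midzone, passed in neither, with differences from -1.39 (Tacc3, brown) to -0.23 (Kif23, white).

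No gene of chromosome structure and neither of the centromere and centriole genes tested passed in either cell type. Top2a, which untangles sister chromatids, gave -0.65 ± 0.35 and -0.58 ± 0.30. The proliferation marker Mki67 gave -0.52 ± 0.49 and -0.02 ± 0.42, and its second probe set gave -0.10 in brown and 0.06 in white cells. The condensin subunits Smc2 and Smc4 gave -0.45 ± 0.36 and -0.05 ± 0.38 in brown cells. In white cells Smc4 ran from 65.8 over 216 to 338 at day 4 and from 200 over 302 to 444 at day 7, a difference of 0.68 ± 0.32 (adjusted p = 0.139). Cenpa, the centromeric histone, gave -0.22 ± 0.23 and -0.28 ± 0.20, and Plk4, the kinase of centriole copying, gave -0.96 ± 0.37 and -0.25 ± 0.32.

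The count of 14 in brown cells became 8 without day 4 array 09 or day 7 array 12 and 9 without day 7 array 08. In brown cells the summed signal of the myogenic marker list was lower at day 7 as well. All 7 of its genes were on the array. Their summed signal was 719 to 1371 at day 4 and 320 to 438 at day 7. On all arrays of each brown group, 1 of the 7 lay at the floor. Acta1 and Myog were called lower at day 7 (adjusted p = 0.00217 and 0.00186). Myod1 and Des were not called (adjusted p = 0.0638 and 0.0666), and Myf5, Myf6 and Chrna1 were not tested. The part of such cells in the result was not tested.

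The count of 15 in white cells became 8 without day 7 array 36 and 9 without day 7 array 40. With the Gapdh ratio as a covariate, 4 genes were lower in white cells, Ccnb2, Cdc20, Cdc25c and Tacc3, all 32 signs were negative, the median was -1.05, and the median standard error rose from 0.29 to 0.48. The ratio was 1.09 to 1.54 at white day 7 and at most 1.10 in the other groups. RNA integrity and the white day 7 state can therefore hardly be told apart, with or without the covariate. White day 7 arrays 40 and 44 had the lowest mean log2 signals of the mitosis genes of all arrays, 5.93 and 5.84, and Gapdh ratios of 1.09 and 1.11, the lowest at white day 7. Array 36 had the next lowest mean, 6.01, and the highest Gapdh ratio of all arrays, 1.54. The 12 macrophage markers summed to 615 to 1701 at white day 4 and 900 to 1453 at white day 7. Of the 8 tested, Lyz2 and C1qa were called higher at day 7 in white cells (adjusted p = 0.000581 and 0.0414). Cd68, Csf1r, Cd14, Msr1, C1qb and C1qc were not called. The part of these cells was not tested.

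At day 4 brown cells carried more mitosis gene RNA than white cells. Of 32 genes, 17 were higher in brown and 0 lower, where 11.7% of all genes were higher and 12.8% lower. Without Kifc1 the count was 16 of 31. All 32 signs were positive, with a median of 0.68 against 0.01 over all genes. Among the 31 without Kifc1 all were positive too, with a median of 0.675. These are the signs of the probe set that stands for each gene. The second probe set of Incenp gave -0.06 at day 4 (adjusted p = 0.876) and -0.19 at day 7 (adjusted p = 0.543). On 4 of the 32, Bub3, Ccnb2, Plk1 and Stmn1, every brown array lay above every white array, against 3.63% of all genes. These comparisons share their day 4 arrays with the day 7 against day 4 comparisons.

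**Figure D3:**
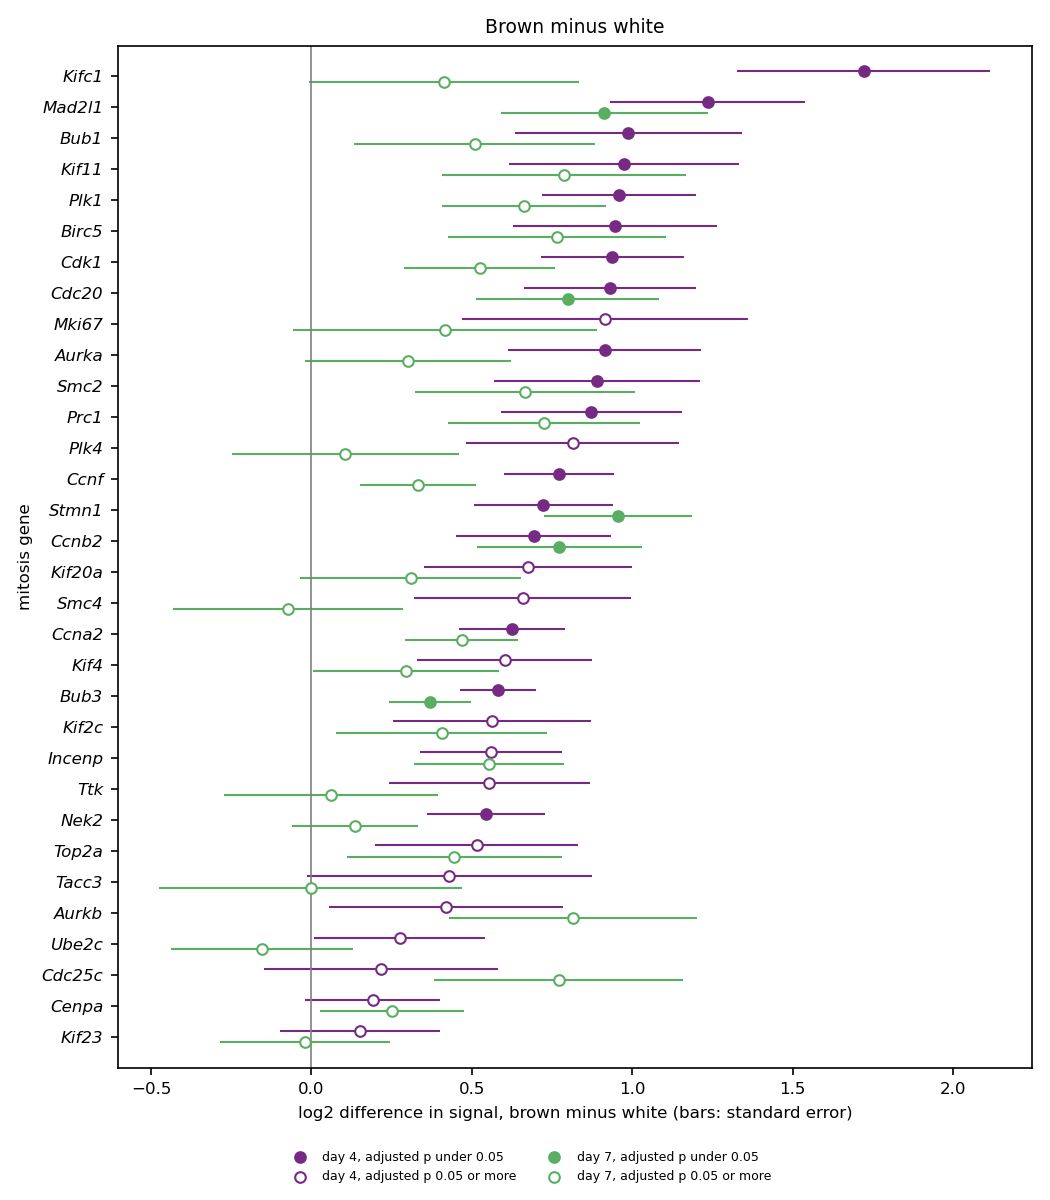
Log2 difference in signal (x axis, brown minus white) for each of the 32 mitosis genes (y axis) at day 4 and at day 7, with bars for the standard error of the fit. Filled points have an adjusted p under 0.05, which 17 genes reached at day 4 and 5 at day 7.

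Kifc1, at 13.5 over 18.9 to 40.2 on white day 4 arrays, had a fitted difference of 1.72 ± 0.40, which is given as a description. Mad2l1 ran from 67.6 over 156 to 221 at white day 4, and brown array 19, at 166, was the 1 brown array within that range. Its difference was 1.24 ± 0.30 (2.35-fold, adjusted p = 0.00401). Plk1 was higher in brown cells by 0.96 ± 0.24 (1.94-fold, adjusted p = 0.0047) without overlap, as its signals above show. Its other tested probe sets overlapped between the cell types and were not called, at 0.85 and 0.86 (adjusted p = 0.157 and 0.102).

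Bub1 read 86.5, 42.3, 70.7, 60.7 and 30.5 at brown day 4 and ran from 10.8 over 35.4 to 45.7 at white day 4. Kif11, the motor that pushes spindle poles apart, read 103, 69.0, 115, 83.5 and 43.7 at brown day 4 and ran from 16.1 over 48.0 to 74.8 at white day 4. For each, 2 brown arrays lay within the white range, and the calls were close to the threshold. Bub1 was higher in brown cells by 0.99 ± 0.35 (adjusted p = 0.0437) and Kif11 by 0.97 ± 0.36 (adjusted p = 0.0495). At day 7 Bub1 read 31.2, 22.5, 57.6, 31.4 and 23.9 in brown and 10.7 over 25.2 to 33.7 in white cells, and Kif11 read 63.0, 77.6, 88.9, 51.7 and 28.6 in brown and 17.6 over 33.7 to 66.2 in white cells. Neither passed at day 7 (adjusted p = 0.35 and 0.134).

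Stmn1 read 1276, 1069, 1058, 1243 and 1126 at brown day 4 and ran from 579 over 683 to 894 at white day 4, all brown arrays above all white ones. It was higher in brown cells by 0.72 ± 0.22 (adjusted p = 0.0169). The smallest called differences were those of Nek2, at 0.54 ± 0.18, Bub3, at 0.58 ± 0.12, and Ccna2, at 0.62 ± 0.17. The remaining 8 called genes, Aurka, Birc5, Ccnb2, Ccnf, Cdc20, Cdk1, Prc1 and Smc2, were higher by 0.69 to 0.95. The count of 17 became 9 without brown day 4 array 05 or 09, 11 without array 10, and 12 without white day 4 arrays 45 and 51, where Kif11 reached an adjusted p of 0.142. The myogenic list summed to 719 to 1371 in brown and 205 to 304 in white cells. Of its tested genes, Acta1, Myog and Myod1 were called higher in brown cells, and Des was not called (adjusted p = 0.644). The part of the myogenic list in this difference was not tested.

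At day 7 fewer differences between the cell types passed. Of 32 genes, 5 were higher in brown cells and 0 lower, where 13.2% of all genes were higher and 12.3% lower. The median was 0.43, and 28 of 32 signs were positive. On 2 of the 32, Bub3 and Ccna2, the arrays did not overlap, against 8.88% of all genes. The members' share of 5 of 32 was thus near the share of all genes.

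Stmn1 read 807, 542, 947, 703 and 1091 at brown day 7 and ran from 251 over 403 to 723 at white day 7. Brown arrays 08 and 12 lay within the white range. Stmn1 was higher in brown cells by 0.95 ± 0.23 (1.94-fold, adjusted p = 0.00312). Mad2l1 was higher by 0.91 ± 0.32 (adjusted p = 0.0385), its white signals running from 44.7 over 86.6 to 147. Cdc20, Ccnb2 and Bub3 were higher by 0.80 ± 0.28, 0.77 ± 0.26 and 0.37 ± 0.13. Plk1 was not called by the probe set that stands for it, at 0.66 ± 0.26 (adjusted p = 0.0576). Its other tested probe sets gave 1.51 (adjusted p = 0.0062) and 0.68 (adjusted p = 0.292). Leaving out an array moved the count of called genes between 1 and 10. It was 1 without brown array 11 or 22 or white array 36, 40 or 44, 2 without brown array 07, 9 without white array 39, and 10 without white array 43. A fit with the Gapdh ratio as a covariate called Cdc25c alone, while the median of the 32 differences was 1.10, all 32 signs were positive, and the median standard error was 0.55 against 0.32. The ratio was 0.854 to 0.942 on brown and 1.09 to 1.54 on white day 7 arrays. RNA integrity and cell type cannot be told apart at day 7.

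The change from day 4 to day 7 was not shown to differ between the cell types for any gene of the 32. The difference of the changes (brown minus white) gave 0 calls by limma, where 0.191% of all genes were called. At an unadjusted p under 0.05 stood 1 of 32, Kifc1, and 0 of 31 without it. The value of Kifc1, -1.31 ± 0.58, is a description with no test, as the filter chose that gene. The median was -0.26, with 27 negative signs. Among the 31 without Kifc1 it was -0.22, with 26 negative signs. Over all 32 genes the median turned to 0.27 when the Gapdh ratio entered the fit. The 95% intervals left room for sizeable differences, as for Aurka, at -0.61 (-1.52 to 0.29). For Cdc20 the difference was -0.13 (-0.93 to 0.67). Those genes called lower in just 1 cell type, Ccnf, Kifc1 and Mad2l1 in brown and Aurkb, Cdc25c, Incenp and Stmn1 in white cells, were therefore not shown to differ between the cell types. With sets of neighbouring array numbers as a block, Ccnf was lower in white (adjusted p = 0.0336) and Incenp in brown cells too (adjusted p = 0.0161), Ttk and Tacc3 were lower in brown cells (adjusted p = 0.0283 and 0.0443), and Kif20a was no longer called in white cells (adjusted p = 0.067).

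A wider list of 125 other mitosis genes, taken from their textbook roles, had 69 genes with a probe set and 58 tested. The list was chosen with earlier results of these data known. Whether any of the 58 passed the filter mainly through a single group, as Kifc1 did, was not checked. In brown cells 17 of the 58 were lower at day 7 and 0 higher, where 6.50% and 6.48% of all genes were, with a median of -0.42 against 0.02. The largest called falls were those of Trip13, by 1.26 ± 0.31, Cdca8, by 1.19 ± 0.25, Ncaph, by 1.14 ± 0.29, Mis18a, by 1.08 ± 0.34, and Pimreg, by 1.01 ± 0.21. Trip13 remodels Mad2l1, Cdca8 belongs to the passenger complex, Ncaph is a condensin subunit and Mis18a helps load Cenpa. Foxm1, a transcription factor of these genes, fell by 0.86 ± 0.24 in brown (adjusted p = 0.0176) and 0.66 ± 0.20 in white cells (adjusted p = 0.0239), and was picked out after its values were seen. Without brown arrays 08, 09 and 12, each left out alone, 10, 11 and 11 were lower.

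In white cells 20 of the 58 were lower and 2 higher, where 10.4% and 9.03% of all genes were, with a median of -0.28 against 0.01. The largest called falls were those of Cdkn3, by 1.26 ± 0.42, Racgap1, by 1.22 ± 0.39, Trip13, by 1.06 ± 0.27, Kif22, by 1.03 ± 0.23, and Cdca8, by 0.96 ± 0.21. Racgap1 works in cytokinesis, and Kif22 moves chromosome arms. The 2 genes that rose were Nipbl, the cohesin loader, by 1.47 ± 0.47 (adjusted p = 0.0287), and Anapc4, a subunit of the anaphase-promoting complex, by 0.64 ± 0.21 (adjusted p = 0.0327). The subunits Anapc2 and Cdc26 of the same complex fell by 0.45 ± 0.10 and 0.32 ± 0.11 in white cells.

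The genes varied together within groups as well. After each group's mean was taken off, the 496 pairs of the 32 genes had a median Pearson correlation of 0.50 over the 24 arrays, and 91.7% were positive. These values describe arrays that share scaling and RNA. They were not computed for genes outside the list, so they are not shown to be particular to the mitosis genes. The correlation with the mean of the other genes was highest for Kif2c, at 0.91, and Kif20a, at 0.90, followed by Mki67, at 0.89, and Top2a, at 0.88, which passed in neither day comparison. It was lowest for Ccnf, at -0.03, Ube2c, at 0.06, and Bub3, at 0.27.

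**Figure D4:**
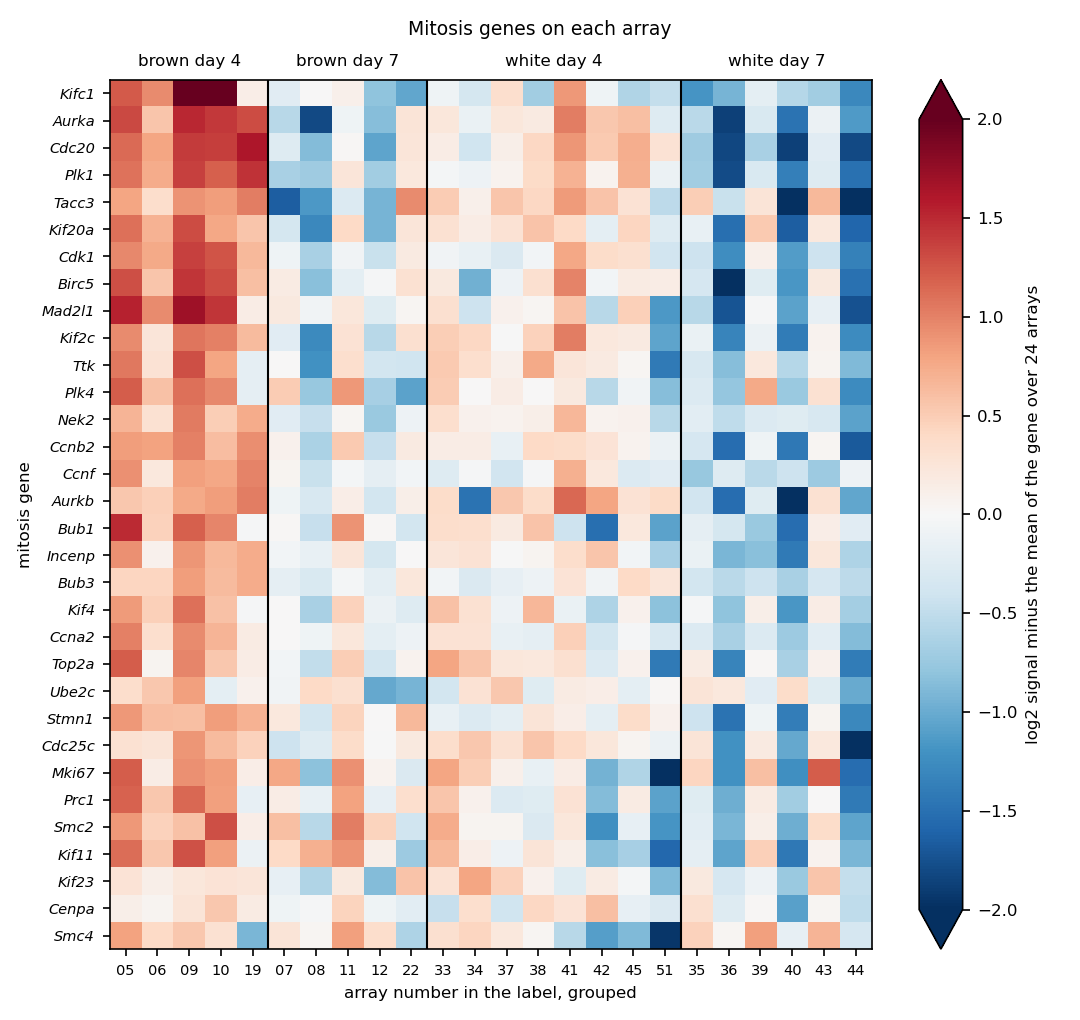
Log2 signal minus the gene's mean over all 24 arrays (colour, clipped at -2 and 2) for the 32 mitosis genes (rows) on each array (columns, grouped and numbered as in the labels). All 32 genes lay above their own mean on brown day 4 arrays 05, 06 and 09, and 0 did on white day 7 array 44.

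Part of this spread followed the array numbers. Averaged over the 32 genes, log2 signal was 7.44 to 8.09 on brown day 4, 6.50 to 7.35 on brown day 7, 6.40 to 7.42 on white day 4 and 5.84 to 7.07 on white day 7 arrays. Within groups there were 10 pairs of an odd-numbered array and the next even number, and in 9 of them the even-numbered array was lower. The differences ran from -0.22 to -0.71 in brown pairs. In white cells at day 7 they were -0.80, -1.04 and -1.23, with 30, 29 and 31 of the 32 genes lower. The exception was white day 4 pair 37 and 38, at 0.10. How many of all genes were lower on the even-numbered arrays was not counted. These differences are therefore not shown to be particular to the mitosis genes. The cause was not tested. With odd or even number as a term in the fit, an alternative chosen after seeing the data, 13 genes were lower in brown and 15 in white cells at day 7.

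**Figure D5:**
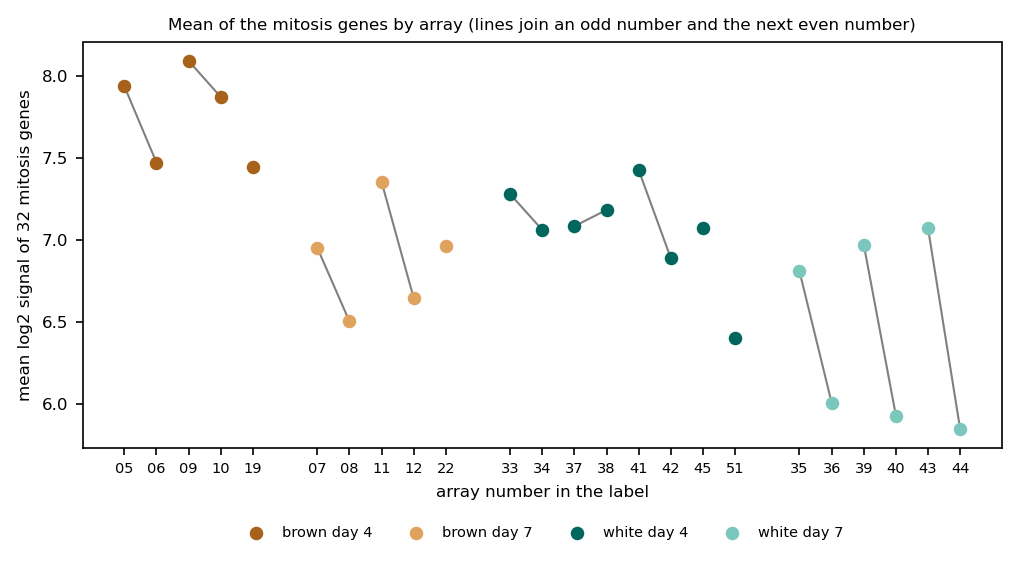
Mean log2 signal of the 32 mitosis genes (y axis) on each array (x axis, number in the label, coloured by group), with lines joining an odd number and the next even number within a group. The even-numbered array is lower in 9 of 10 pairs, and white day 7 arrays 36, 40 and 44 lie at 6.01, 5.93 and 5.84 against 6.81 to 7.07 for 35, 39 and 43.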

How the data were processed

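RNA of 24 samples was measured on 1 array each. The deposited values are linear signal intensities per probe set, made by the authors with MAS5, per the submitters' processing notes, with its version not given in the sources used here. MAS5 subtracts mismatch signal, so low values are noisy. Of 12488 probe sets, the platform annotation, which can be old, gave 10855 a single symbol, 396 several and 1237 none.

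Arrays were scaled to a 2% trimmed mean of 150, floored at the 20th percentile of all values (8.21) and put on the log2 scale. The filter left 8397 probe sets after 66 control probe sets were dropped, with 1.56% of their values at the floor. The group means of all 4 groups entered a single fit in limma 3.58.1 in R 4.3.3 (lmFit, eBayes with an intensity trend, 20 residual degrees of freedom). Tests were two-sided, and p-values were adjusted after Benjamini and Hochberg over all 8397. The fit was tested on simulated data with independent arrays and a single spread per probe set. That setting cannot show how the p-values behave where arrays vary together or groups differ in spread. Where several probe sets of a gene were tested, the one with the highest mean log2 signal stands for it. There is no count depth for arrays, so precision is limited by how many there are.

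Named genes were the 3 largest called falls in each cell type, up to 6 by size among brown against white calls, the smallest calls, and 5 per direction of the wider list. The marker lists also held lymphocyte, erythroid, endothelial and white fat genes. The endothelial list summed to 342 to 512 at brown day 4, 487 to 866 at brown day 7, 162 to 327 at white day 4 and 123 to 286 at white day 7. In the same order the lymphocyte list summed to 121 to 268, 239 to 306, 157 to 309 and 227 to 430, the erythroid list to 42.1 to 74.5, 48.9 to 87.9, 25.8 to 79.3 and 52.0 to 87.6, and the white fat list to 276 to 462, 281 to 521, 835 to 1155 and 735 to 1036. The members and lists were chosen with earlier results of these data known. The alternatives were other floors, filters, scalings, weights, blocks and covariates, and arrays left out.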

Additional observations from a re-analysis of the deposited data

Results flagged for a closer look

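Of 128 groups of arrays (32 genes in 4 groups), 7 held an array far from the others by Dixon's criterion, and chance flags about 1 in 20 groups. Aurka read 143 on brown day 4 array 06, against 240 to 276 on the others, and Ccnf read 139 on the same array, against 205 to 239. Aurkb read 49.3 on white day 4 array 34, against 168 to 304. Cenpa read 123 on brown day 7 array 11, the highest there, against 77.6 to 88.1. Nek2 read 48.2 on white day 7 array 44, against 71.3 to 87.2. Ttk read 18.03 on white day 4 array 51, against 49.3 to 81.1. Smc4 read 133 on brown day 4 array 19, against 313 to 440.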

How the results depend on the processing

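No called difference changed sign under any alternative run. With no filter on low signals, the counts of called genes were 9 (brown, day 7 against day 4), 10 (day 4, brown against white) and 2 (day 7), against 14, 17 and 5. With white arrays fitted alone, 9 genes were lower in white cells, against 15, and with the Gapdh ratio as a covariate 4 were, and 2 of the wider list, against 20. At day 7, 8 genes were higher in brown cells by quantile normalization, 8 with array weights, 1 with the Gapdh ratio and 9 with odd or even number as a term, which was added after seeing the data. Leaving out each array in turn gave 8 to 16 lower genes in brown cells, 8 to 17 in white cells, 9 to 18 higher at day 4, 1 to 10 at day 7, 0 for the difference of changes, and 10 to 21 (brown) and 15 to 22 (white) for the wider list. Without white day 4 arrays 45 and 51 the counts were 16, 14, 12 and 6. The counts of lower genes in brown cells and of higher genes at day 4 hold Kifc1 in every run that tested it. The groups share no replicate number, so samples could not be paired by it. Sets of neighbouring numbers, a grouping the labels do not state, gave as a block 17 lower genes in brown and 15 in white cells; the block was not run for brown against white, nor the fit of just the groups compared for the difference of changes. In brown cells Aurka, Bub3, Ccnf, Cdc20, Cdk1, Nek2 and Plk1 kept their call under all alternatives, and in white cells Ccnb2 and Cdc20 did. The number of arrays and signals near background limit all counts.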
